A study of Mus musculus with 36 samples.

Results

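The genes described here are 10 enzymes of serine synthesis and folate one-carbon metabolism, taken by symbol from the 56184 gene symbols of the count table. They are Phgdh, Psat1 and Psph of serine synthesis, Shmt1 and Mthfd1 of cytosolic folate metabolism, and Shmt2, Mthfd1l, Mthfd2, Mthfd2l and Aldh1l2 of mitochondrial folate metabolism. All 10 passed the filter on low counts and were among the 16255 genes tested. They were followed in 36 libraries of polyadenylated RNA from 10 mg pieces of mouse brain taken on postnatal day 19. The 4 groups were Gpt2 knockouts given dm-αKG (KO-aKG, n = 8), Gpt2 wild types given dm-αKG (WT-aKG, n = 8), Gpt2 knockouts given vehicle (KO-Veh, n = 10) and Gpt2 wild types given vehicle (WT-Veh, n = 10). dm-αKG, an ester of α-ketoglutarate that enters cells, was injected intraperitoneally at 600 mg per kg. Gpt2 encodes the mitochondrial alanine transaminase. The sources used here do not give the number and timing of injections, the strain, the sex, the deleted part of Gpt2 or the brain region. Whether every library had its own animal is not stated, and the p-values reflect only how much these samples spread.

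Serine is made from a glycolytic intermediate in 3 steps: Phgdh oxidises it, Psat1 adds an amino group from glutamate and so releases α-ketoglutarate, and Psph removes the phosphate. The serine hydroxymethyltransferases Shmt1 (cytosol) and Shmt2 (mitochondria) then split serine into glycine and a one-carbon unit carried by tetrahydrofolate. In mitochondria Mthfd2 or Mthfd2l oxidises this unit and Mthfd1l releases it as formate, which the trifunctional cytosolic enzyme Mthfd1 loads back onto folate for purine and thymidylate synthesis, while Aldh1l2 oxidises it to carbon dioxide and forms NADPH. In brain, serine synthesis is known mainly from astrocytes and radial glia, and in mammalian cells ATF4, a transcription factor induced by amino acid shortage and other stress, is known to activate several of these genes.

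Libraries held 5.77 to 13.3 M counts (median 11.4 M). Levels below are CPM, the share of a library's counts scaled by TMM, and the spread is given as SD over libraries. Gpt2 stood at 2.37 ± 0.701 CPM in KO-aKG, 32.3 ± 3.94 in WT-aKG, 2.04 ± 0.837 in KO-Veh and 30.2 ± 5.61 in WT-Veh, with no overlap of genotypes. Neuron, astrocyte and oligodendrocyte markers were present in every group. Brain region markers differed within groups. In 9 libraries the mean log2 CPM of 21 cerebellum markers exceeded the average library's by over 1 unit: 1 KO-aKG (of 8), 4 WT-aKG (of 8), 1 KO-Veh (of 10) and 3 WT-Veh (of 10). These are called cerebellum-high below, and key values are also given without them. The X-linked Xist exceeded the Y-linked Ddx3y in 4 KO-aKG (of 8), 5 WT-aKG (of 8), 2 KO-Veh (of 10) and 2 WT-Veh (of 10) libraries, so the treatment arms were unequal in this. With it as a covariate the calls among the enzymes were the same: Psph, Shmt2 and Mthfd2 in both genotype comparisons and 0 between treatments. In bulk tissue fewer cells of a type and less RNA per cell cannot be told apart.

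Knockout brains held more RNA of Psph, Shmt2 and Mthfd2 than wild-type brains, with vehicle and with dm-αKG alike. In each genotype comparison 3 of the 10 enzymes were higher and 0 lower past the test (edgeR adjusted p under 0.05), against 4.31% of all genes tested with vehicle (2.6% higher, 1.72% lower) and 1.87% with dm-αKG (1.12% higher, 0.751% lower). By compartment these were 2 of 5 mitochondrial folate enzymes, 1 of 3 serine synthesis enzymes and 0 of 2 cytosolic folate enzymes. The median log2 fold change of the 10 was 0.39 with vehicle and 0.37 with dm-αKG, while that of all genes tested was −0.02 in both. Leaving out KO-Veh-7 raised the calls over all genes with vehicle to 1662, beside 701 with all libraries, while the same 3 enzymes passed. For the mitochondrial enzymes alone the median was 0.59 with vehicle and 0.64 with dm-αKG.

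**Figure D1:**
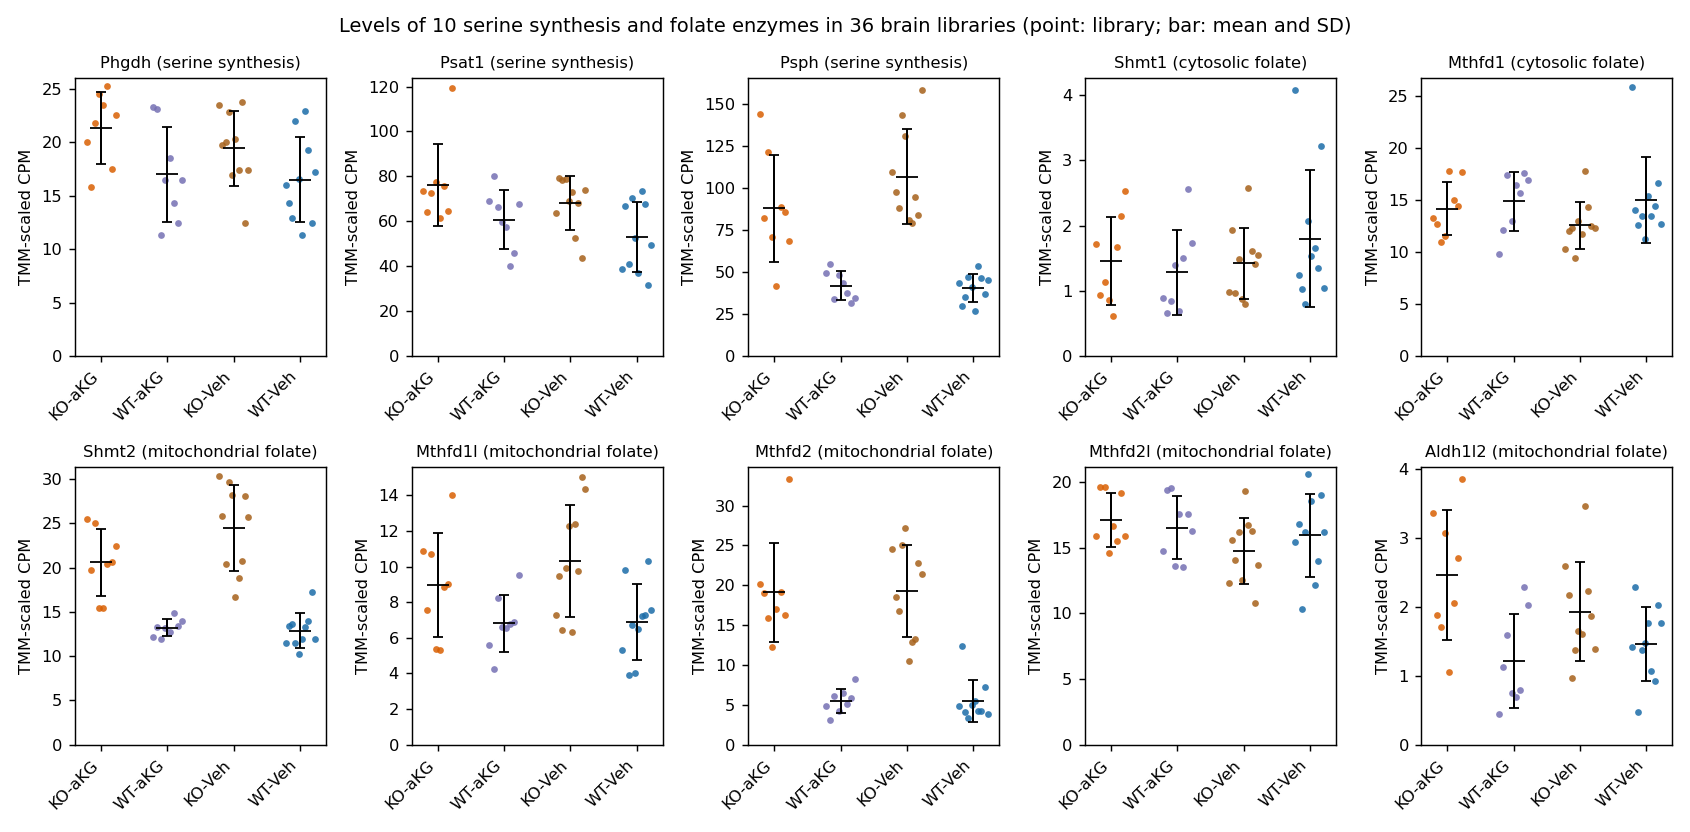
TMM-scaled CPM (y axis) of each enzyme in KO-aKG, WT-aKG, KO-Veh and WT-Veh libraries (x axis). Points are libraries and bars the mean and SD. Mean Mthfd2 levels were 19.1, 5.47, 19.3 and 5.47 CPM from left to right. The genotypes do not overlap for Psph with vehicle and for Shmt2 and Mthfd2 with dm-αKG, and they overlap in the other genotype comparison of each. Of all genes tested, 0.24% with vehicle and 0.412% with dm-αKG lay higher in knockouts without overlap.

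Serine synthesis begins with Phgdh, whose lowest, median and highest levels with vehicle were 12.5, 19.9 and 23.7 CPM in KO-Veh and 11.3, 16.3 and 22.9 CPM in WT-Veh. With dm-αKG they were 15.8, 22.1 and 25.3 CPM in KO-aKG and 11.3, 16.4 and 23.3 CPM in WT-aKG. The groups overlapped widely. Phgdh did not pass the test in either: with vehicle its log2 fold change was 0.24 (SE 0.14, edgeR adjusted p = 0.322), and under dm-αKG it was 0.33 (SE 0.15, adjusted p = 0.292). Psat1, the transaminase of the pathway, had 43.5, 71.1 and 79.4 CPM in KO-Veh against 31.5, 51.0 and 73.3 CPM in WT-Veh (lowest, median and highest). With dm-αKG it had 61.7, 73.1 and 119 CPM in KO-aKG against 40.0, 63.0 and 80.2 CPM in WT-aKG. Its medians lay above those of wild type in both comparisons, but its log2 fold changes of 0.37 (SE 0.15, adjusted p = 0.157) and 0.33 (SE 0.17, adjusted p = 0.344) missed the threshold.

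Psph, the phosphatase that ends serine synthesis, was the only serine synthesis enzyme that passed the edgeR test. It had 79.3, 96.3 and 159 CPM in KO-Veh against 26.8, 42.2 and 53.8 CPM in WT-Veh (lowest, median and highest of 10 each). Every KO-Veh library lay above every WT-Veh library, which held for 0.24% of all genes tested. The difference was 2.63-fold (log2 fold change 1.40, SE 0.17, edgeR adjusted p = 7.42e-07). With dm-αKG it had 41.98, 84.1 and 144 CPM in KO-aKG against 31.8, 40.6 and 55.1 CPM in WT-aKG (8 each), and 7 of 8 knockouts exceeded every wild type. The exception, KO-aKG-5, lay within the wild-type range. It was the library with the fewest counts (5.77 M) and the lowest mean log2 CPM of cortex markers in its group (2.45). Whether these bear on its Psph level was not tested. The difference was 2.10-fold (1.07, SE 0.19, adjusted p = 0.000695). Without the cerebellum-high libraries Psph rose by 1.37 (adjusted p = 5.07e-05) with vehicle and by 0.86 (adjusted p = 0.0428) with dm-αKG on the log2 scale.

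The cytosolic folate enzymes did not pass the test in either comparison. Shmt1 was near the lower limit of detection, with 4 to 55 counts per library. It had 0.802, 1.45 and 2.57 CPM in KO-Veh against 0.798, 1.44 and 4.08 CPM in WT-Veh (lowest, median and highest), and 0.606, 1.41 and 2.52 CPM in KO-aKG against 0.659, 1.14 and 2.56 CPM in WT-aKG. Its log2 fold change was −0.35 with vehicle (SE 0.29, edgeR adjusted p = 0.504) and 0.17 under dm-αKG (SE 0.33, adjusted p = 0.853), both with wide errors. Mthfd1 was measured more firmly, with 9.45, 12.3 and 17.7 CPM in KO-Veh against 11.2, 13.7 and 25.8 CPM in WT-Veh. With dm-αKG Mthfd1 had 10.99, 13.8 and 17.7 CPM in KO-aKG against 9.82, 16.0 and 17.6 CPM in WT-aKG. Its log2 fold changes were −0.25 (95% interval −0.52 to 0.01, adjusted p = 0.254) and −0.07 (−0.37 to 0.23, adjusted p = 0.864). These intervals do not contain the rise seen for Shmt2, Mthfd2 or Psph.

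Shmt2, the mitochondrial counterpart of Shmt1, was higher in knockouts. It had 16.7, 25.8 and 30.4 CPM in KO-Veh against 10.3, 12.7 and 17.3 CPM in WT-Veh, and 9 of 10 knockouts exceeded every wild type. The library KO-Veh-6, at the low end of its group, lay just under the highest wild type, WT-Veh-9. The difference was 1.90-fold (log2 fold change 0.92, SE 0.11, edgeR adjusted p = 4.71e-07). With dm-αKG Shmt2 had 15.5, 20.5 and 25.5 CPM in KO-aKG against 11.9, 13.2 and 14.9 CPM in WT-aKG, without overlap, which held for 0.412% of all genes tested (higher in knockouts). The difference was 1.56-fold (0.64, SE 0.12, adjusted p = 0.00211). The spread of Shmt2 was wider in knockouts, with coefficients of variation of 18.4% in KO-aKG, 7.28% in WT-aKG, 20.03% in KO-Veh and 15.0% in WT-Veh. Whether these differ was not tested.

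Mthfd2, the mitochondrial dehydrogenase and cyclohydrolase best known from embryonic and dividing cells, showed the largest fold change of the 10 in both comparisons. It had 10.5, 19.96 and 27.2 CPM in KO-Veh against 3.31, 4.59 and 12.4 CPM in WT-Veh. Of 10 knockouts 9 exceeded every wild type, and the overlap came from WT-Veh-2, whose next neighbour stood at 7.19 CPM. The difference was 3.52-fold (log2 fold change 1.81, SE 0.21, edgeR adjusted p = 5.03e-07). With dm-αKG Mthfd2 had 12.2, 17.99 and 33.3 CPM in KO-aKG against 3.11, 5.48 and 8.18 CPM in WT-aKG, without overlap. Such a separation, higher in knockouts, held for 0.412% of all genes tested. The difference was 3.49-fold (1.80, SE 0.24, adjusted p = 7.97e-06). Without the cerebellum-high libraries the log2 fold change was 1.91 with vehicle and 2.11 with dm-αKG for Mthfd2, and 1.00 and 0.70 for Shmt2, each past the test.

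Its paralog Mthfd2l, which catalyses the same step and is the form known from adult tissues, gave no such difference. Mthfd2l had 10.8, 14.9 and 19.3 CPM in KO-Veh against 10.3, 16.2 and 20.6 CPM in WT-Veh, and 14.6, 16.3 and 19.6 CPM in KO-aKG against 13.6, 16.9 and 19.5 CPM in WT-aKG. The ranges nearly coincided. Its log2 fold changes were −0.11 (95% interval −0.34 to 0.11, edgeR adjusted p = 0.577) and 0.05 (−0.20 to 0.30, adjusted p = 0.883).

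The remaining mitochondrial enzymes lay between these cases. Mthfd1l, the formate-releasing synthetase, had 6.33, 9.84 and 15.0 CPM in KO-Veh against 3.90, 6.97 and 10.3 CPM in WT-Veh, and 4 of 10 knockouts exceeded every wild type. Its log2 fold change of 0.59 (SE 0.19, edgeR adjusted p = 0.0706) missed the threshold, and it passed with DESeq2 (0.59, adjusted p = 0.0401), with region scores as covariates (0.75, adjusted p = 0.00408) and without WT-Veh-9, KO-Veh-3 or KO-Veh-6 (0.67, 0.65 and 0.65). With dm-αKG it had 5.30, 8.94 and 14.02 CPM in KO-aKG against 4.24, 6.69 and 9.56 CPM in WT-aKG (log2 fold change 0.40, SE 0.21, adjusted p = 0.361). Aldh1l2 was low, with 4 to 55 counts per library. It had 0.969, 1.76 and 3.46 CPM in KO-Veh against 0.477, 1.45 and 2.29 CPM in WT-Veh (0.40, SE 0.27, adjusted p = 0.393). With dm-αKG Aldh1l2 had 1.06, 2.38 and 3.86 CPM in KO-aKG against 0.446, 0.959 and 2.29 CPM in WT-aKG, and 4 of 8 knockouts exceeded every wild type. That log2 fold change of 1.00 (SE 0.30, adjusted p = 0.0807) also missed the threshold, and passed it with region scores as covariates (1.25, adjusted p = 0.00255), without the cerebellum-high libraries (1.69, adjusted p = 0.0164) and without WT-aKG-7 or WT-aKG-8 (1.19 and 1.15).

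**Figure D2:**
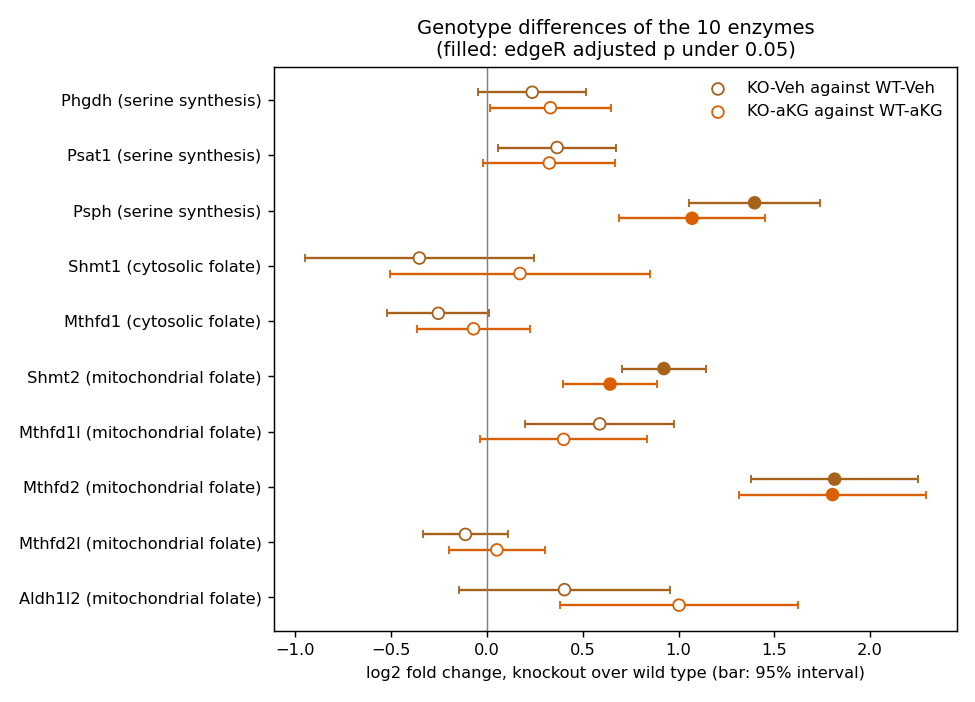
log2 fold change of each enzyme, knockout over wild type (x axis, bars the 95% interval), with vehicle (upper mark of each row) and with dm-αKG (lower mark). Filled marks have an edgeR adjusted p under 0.05: Psph, Shmt2 and Mthfd2 are filled in both comparisons, and both Mthfd2l intervals span 0.

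Region and cell type markers also shifted between the groups, though few passed the test. Markers of the same region vary together within a library, so their signs are not independent of each other. All 21 cerebellum markers had negative log2 fold changes in both genotype comparisons (median −1.02 with vehicle and −1.81 with dm-αKG) and 0 were called by edgeR. None was at 0 in a whole group, and their summed level ran from 210 to 1972 CPM in KO-aKG, 220 to 5401 in WT-aKG, 198 to 6487 in KO-Veh and 303 to 6061 in WT-Veh. Of 10 astrocyte markers 1, the water channel Aqp4, was called lower with vehicle and 0 with dm-αKG. Their sums ran from 2552 to 3535 CPM in KO-aKG, 3169 to 4304 in WT-aKG, 2330 to 4536 in KO-Veh and 2428 to 4698 in WT-Veh, with none at 0. The Bergmann and radial glia list had 2 of 6 lower with vehicle (Fabp7 and Tnc) and 1 of 6 with dm-αKG (Fabp7). Of the striatum, cerebral cortex, oligodendrocyte and choroid plexus markers 0 were called in any comparison. All 10 striatum markers lay above 0 in both genotype comparisons (median 0.78 with vehicle and 0.84 with dm-αKG). Of 10 cortex markers 9 lay above 0 with vehicle (0.60) and 5 with dm-αKG (−0.03). All 8 oligodendrocyte and all 8 choroid plexus markers lay below 0 with vehicle (−0.54 and −0.95), against 2 and 6 with dm-αKG (medians 0.12 and −0.55). None of these markers was at 0 in a whole group, and their sums overlapped between the groups. Cortex sums ran from 88.8 to 786 CPM in KO-aKG, 295 to 1021 in WT-aKG, 384 to 970 in KO-Veh and 240 to 919 in WT-Veh. Striatum sums ran from 142 to 706 CPM in KO-aKG, 89.7 to 509 in WT-aKG, 117 to 964 in KO-Veh and 87.4 to 439 in WT-Veh. Oligodendrocyte sums ran from 8326 to 27767 CPM in KO-aKG, 4217 to 34632 in WT-aKG, 4639 to 17335 in KO-Veh and 4074 to 38326 in WT-Veh. Choroid plexus sums ran from 47.3 to 960 CPM in KO-aKG, 28.5 to 1515 in WT-aKG, 22.7 to 1005 in KO-Veh and 32.1 to 1847 in WT-Veh.

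As given above, the rises of Mthfd2, Shmt2 and Psph were also present without the cerebellum-high libraries. With scores of the cerebellum, cortex, striatum, choroid plexus and oligodendrocyte lists as covariates, their log2 fold changes with vehicle were 2.00, 0.91 and 1.26 (edgeR adjusted p = 4e-09, 2.92e-07 and 2.19e-07), and those under dm-αKG were 1.79, 0.76 and 1.15 (adjusted p = 8.21e-07, 0.000126 and 1.85e-05). Mthfd1, which did not pass, moved to −0.07 with vehicle. The part of the remaining cell types in the enzymes' values was not tested.

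Mitochondrial and cytosolic enzymes were then set against each other inside each library, as the log2 ratio of their counts. Such ratios need no library scaling, and only their differences between groups are read, since the ratio itself depends on transcript length and priming. The difference was tested by 2-sided permutation, exact for the dm-αKG groups and with 100000 resamples for the vehicle groups, adjusted over 10 tests. The ratio of Mthfd2 to Mthfd1 was 0.57 ± 0.63 in KO-Veh and −1.51 ± 0.59 in WT-Veh (SD), a difference of 2.09 (permutation adjusted p = 0.000389, 9 of 10 knockouts above every wild type). With dm-αKG it was 0.40 ± 0.32 in KO-aKG and −1.46 ± 0.31 in WT-aKG, a difference of 1.85 (exact permutation adjusted p = 0.000389) without overlap. Within mitochondria, Mthfd2 rose against its paralog Mthfd2l by 1.96 with vehicle and by 1.74 with dm-αKG (permutation adjusted p = 0.000389 for each). The paralogs thus differed in their mean response, and the genotypes overlapped in this ratio with vehicle but not with dm-αKG.

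Shmt2 against Shmt1 gave a log2 ratio of 4.12 ± 0.61 in KO-Veh and 2.97 ± 0.72 in WT-Veh, a difference of 1.15 (95% interval 0.52 to 1.78, permutation adjusted p = 0.00203). With dm-αKG the ratio was 3.89 ± 0.53 in KO-aKG and 3.45 ± 0.61 in WT-aKG, and the difference of 0.44 (−0.18 to 1.06) did not pass (exact permutation adjusted p = 0.145). Mthfd1l against Mthfd1 differed by 0.82 (0.37 to 1.28, permutation adjusted p = 0.0018) with vehicle, and by 0.42 (−0.04 to 0.89, exact permutation adjusted p = 0.0687) with dm-αKG. Aldh1l2 was set against Aldh1l1, its cytosolic counterpart and a known astrocyte marker. That ratio differed by 0.60 (−0.03 to 1.22, permutation adjusted p = 0.0687) with vehicle and by 1.35 (0.46 to 2.24, exact permutation adjusted p = 0.0107) with dm-αKG. Aldh1l1 itself had log2 fold changes of −0.18 with vehicle and −0.27 with dm-αKG (edgeR adjusted p = 0.373 and 0.305). All 10 ratio differences were positive, but the chosen pairs share Mthfd2 and Mthfd1, so these differences are not independent of each other. Mthfd2l, whose own level did not pass the test, was used only as a denominator and was not set against Mthfd1. The positive signs therefore do not extend to every mitochondrial enzyme. The 3 differences that missed the threshold were Shmt2 to Shmt1 and Mthfd1l to Mthfd1 with dm-αKG, and Aldh1l2 to Aldh1l1 with vehicle. Without the cerebellum-high libraries the same 3 missed it, and Shmt2 to Shmt1 with dm-αKG fell to 0.18 (exact permutation adjusted p = 0.564). Whether a ratio responded differently under the 2 treatments was not tested.

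**Figure D3:**
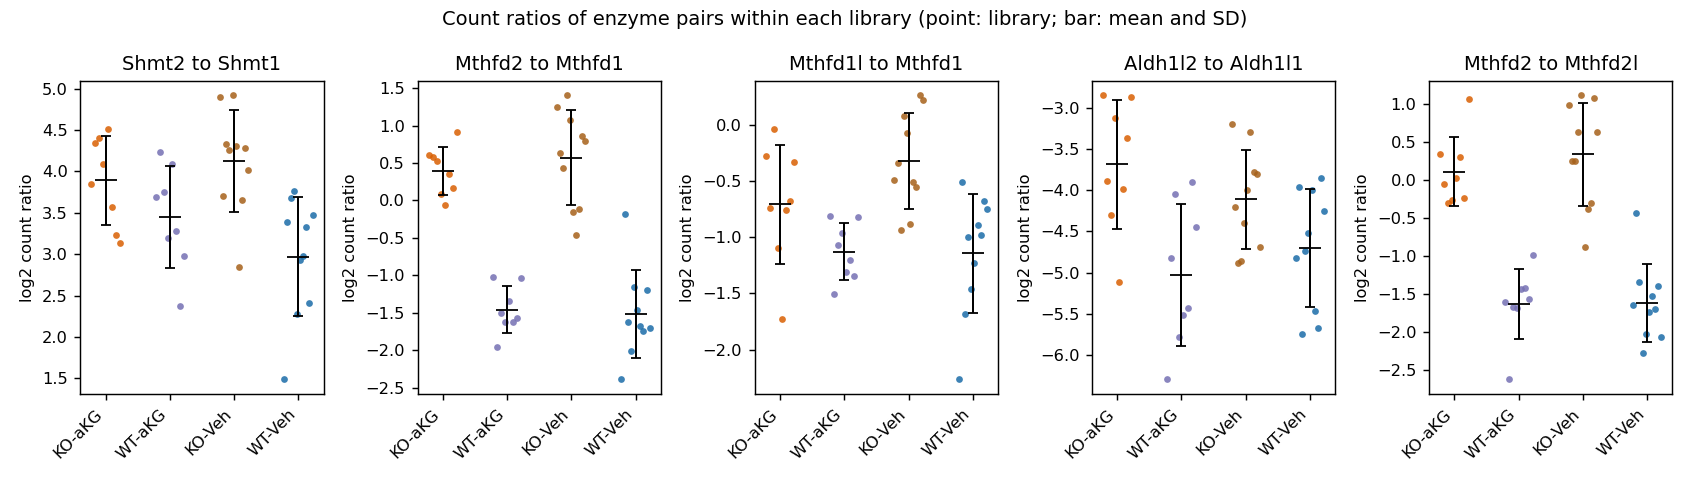
log2 ratio of the counts of 2 enzymes in the same library (y axis) for KO-aKG, WT-aKG, KO-Veh and WT-Veh (x axis). Points are libraries and bars the mean and SD. Mthfd2 to Mthfd1 and Mthfd2 to Mthfd2l lie higher in knockouts, without overlap with dm-αKG.

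Treatment was compared within each genotype, which asks whether dm-αKG moved these levels. edgeR called 0 of the 10 enzymes and 0% of all genes tested in knockouts, in wild types and for the difference between them. At an unadjusted p under 0.05 there was 1 enzyme in knockouts, 0 in wild types and 0 for the difference, beside 1973, 1389 and 729 of all genes. DESeq2 called 0 of the 10 in each, and 20, 90 and 0 of all genes. The 1 enzyme was Shmt2, at 20.6 ± 3.80 CPM in KO-aKG and 24.5 ± 4.90 CPM in KO-Veh (log2 fold change −0.25, 95% interval −0.48 to −0.01, unadjusted edgeR p = 0.037, adjusted p = 0.378). For Psph the means were 87.9 ± 31.8 CPM in KO-aKG and 107 ± 28.2 CPM in KO-Veh (−0.28, −0.64 to 0.08, edgeR adjusted p = 0.539). Mthfd2 had a log2 fold change of −0.01 (−0.45 to 0.43) in knockouts and 0.00 (−0.46 to 0.47) in wild types. In wild types the other 9 changes ran from −0.47 (Shmt1) to 0.20 (Psat1), and in knockouts all 10 ran from −0.28 (Psph) to 0.36 (Aldh1l2).

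The difference between the genotype effects, with dm-αKG minus with vehicle, was −0.01 (95% interval −0.65 to 0.63) for Mthfd2, −0.28 (−0.61 to 0.05) for Shmt2, −0.33 (−0.83 to 0.18) for Psph and 0.60 (−0.23 to 1.43) for Aldh1l2. The lowest edgeR adjusted p of the 10 was 0.961. Between KO-aKG and KO-Veh all 10 cortex markers lay below 0 (median −0.81) and all 8 oligodendrocyte markers above 0 (median 0.84), none of them called. With the region scores as covariates the change of Shmt2 between these groups was −0.15, that of Psph −0.07 and that of Mthfd2 −0.32, with 0 of the 10 enzymes called. The intervals reach both sides of 0, except that of Shmt2 in knockouts (−0.48 to −0.01), and they are wide enough to hold changes of some size. The contrasts share their groups with the comparisons above.

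**Figure D4:**
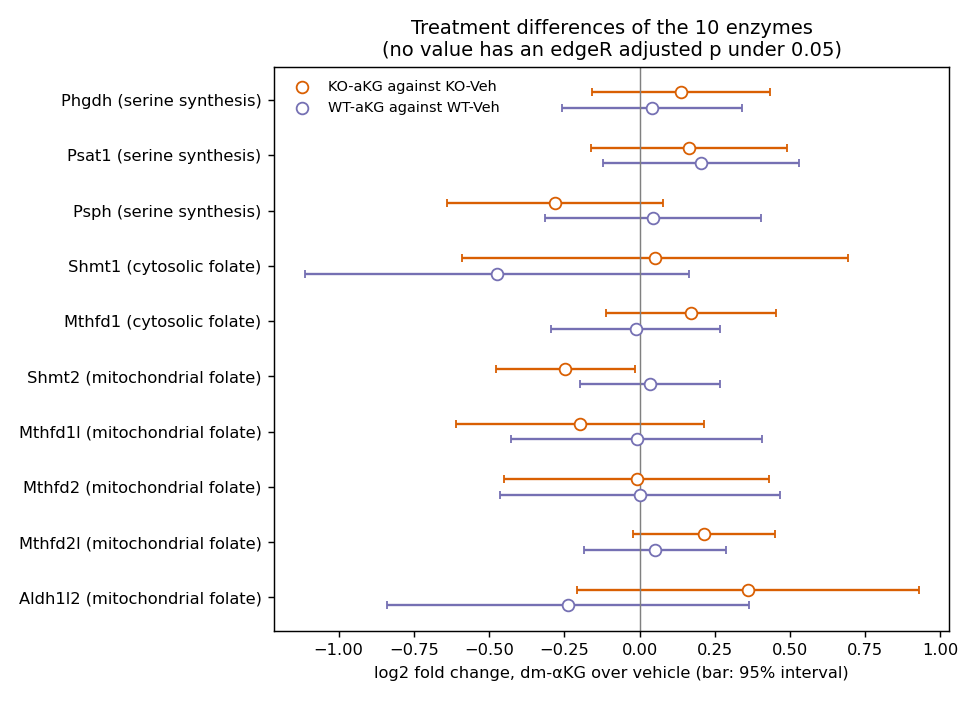
log2 fold change of each enzyme, dm-αKG over vehicle (x axis, bars the 95% interval), in knockouts (upper mark of each row) and wild types (lower mark). Of the 20 intervals only that of Shmt2 in knockouts does not reach 0, and no adjusted p is under 0.05.

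Upstream sequences are shown for the 3 enzymes that passed the test in both genotype comparisons, which Mthfd2l and Mthfd1 did not. Each run is the 250 bases before the RefSeq transcription start (GRCm38.p6), written 5′ to 3′ on the gene's own strand, which is the minus strand for all 3. The windows are chr6:83317605-83317854 for Mthfd2, chr10:127522445-127522694 for Shmt2 and chr5:129787254-129787503 for Psph. The start depends on the annotation. In the GENCODE annotation of GRCm38 these minus-strand genes begin at 83325908 (Mthfd2), 127522444 (Shmt2) and 129787449 (Psph). By those starts the Mthfd2 window lies inside the gene and the Psph window partly inside it, and bases before them were not searched for Mthfd2. Capitals mark CCAAT boxes (CCAAT or its reverse complement ATTGG) in Mthfd2 and Psph, and a match to the NRF1 consensus in Shmt2.
Mthfd2: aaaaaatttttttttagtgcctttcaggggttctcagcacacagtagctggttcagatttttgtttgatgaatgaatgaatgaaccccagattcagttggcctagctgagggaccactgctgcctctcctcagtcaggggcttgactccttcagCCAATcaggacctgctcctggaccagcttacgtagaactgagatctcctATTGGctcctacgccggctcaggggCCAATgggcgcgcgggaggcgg
Shmt2: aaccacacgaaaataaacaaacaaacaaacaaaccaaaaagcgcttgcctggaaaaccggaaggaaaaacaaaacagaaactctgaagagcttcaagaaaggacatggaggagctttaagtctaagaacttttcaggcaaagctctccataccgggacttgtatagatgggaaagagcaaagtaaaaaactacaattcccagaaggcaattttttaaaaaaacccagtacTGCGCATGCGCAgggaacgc
Psph: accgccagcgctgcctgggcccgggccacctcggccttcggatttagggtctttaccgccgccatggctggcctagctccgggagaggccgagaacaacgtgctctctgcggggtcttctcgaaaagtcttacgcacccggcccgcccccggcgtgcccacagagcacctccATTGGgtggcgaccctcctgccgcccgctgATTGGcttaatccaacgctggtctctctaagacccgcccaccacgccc
Motifs were searched on both strands of these windows, which were at hand for 9 of the 10 enzymes, and none of the motifs contains another. The C/EBP-ATF response element TGATGNAA, bound by ATF4 dimers, matched 0 of the 9, and 3.45% of 32851 windows in the genome. The cAMP response element half-site TGACGT matched Mthfd1l alone, and 6.47% of windows. CCAAT matched 6 enzymes (Phgdh, Psat1, Psph, Shmt1, Mthfd1 and Mthfd2), and 33.8% of windows. The NRF1 consensus, named for a factor known to activate genes of mitochondrial function, matched Shmt2 alone, and 0.998% of windows. Such matches describe letters in a window and are not evidence of binding, and sites outside the window, such as in introns, were not searched.

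Enzymes were next followed across libraries of 1 genotype, with group means removed (18 libraries each, log2 CPM, 90 relations in all, permutation within groups). In knockouts Shmt2 and Mthfd2 varied together (Pearson r = 0.77, Spearman rho = 0.73, permutation adjusted p = 0.0126 and 0.0355), as did Psph and Shmt2 (r = 0.72, rho = 0.70, adjusted p = 0.0246 and 0.0439). Without the 2 libraries farthest from the median of the first gene r was 0.79 and 0.71. The other pair that passed by r, Shmt1 and Mthfd1l, had r = 0.69 and rho = 0.67 (permutation adjusted p = 0.0383 and 0.0717). In wild types Shmt2 and Mthfd2 had r = 0.28, and Psph and Shmt2 r = −0.14 (permutation adjusted p = 0.607 and 0.781).

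The wild-type pairs that passed were others. Phgdh and Psph had r = 0.88 and rho = 0.89 (permutation adjusted p = 0.0018 and 0.0027), and Phgdh and Psat1 r = 0.70 and rho = 0.71 (0.0342 and 0.0355). Mthfd2l and Aldh1l2 had r = 0.68 and rho = 0.66 (permutation adjusted p = 0.0342 and 0.0495), and Psph and Mthfd2 were inversely related with r = −0.68 and rho = −0.72 (0.0383 and 0.0355). Without the 2 farthest libraries these 4 r values were 0.85, 0.79, 0.52 and −0.67. In knockouts Phgdh and Psph had r = −0.05, and Psph and Mthfd2 r = 0.33 (permutation adjusted p = 0.929 and 0.457). Whether r differs between genotypes was not tested. Without the cerebellum-high libraries (16 knockouts and 11 wild types left) 0 pairs passed in either genotype, and the r of Shmt2 with Mthfd2 in knockouts was 0.76 and that of Phgdh with Psph in wild types 0.83 (permutation adjusted p = 0.0745 for each).

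**Figure D5:**
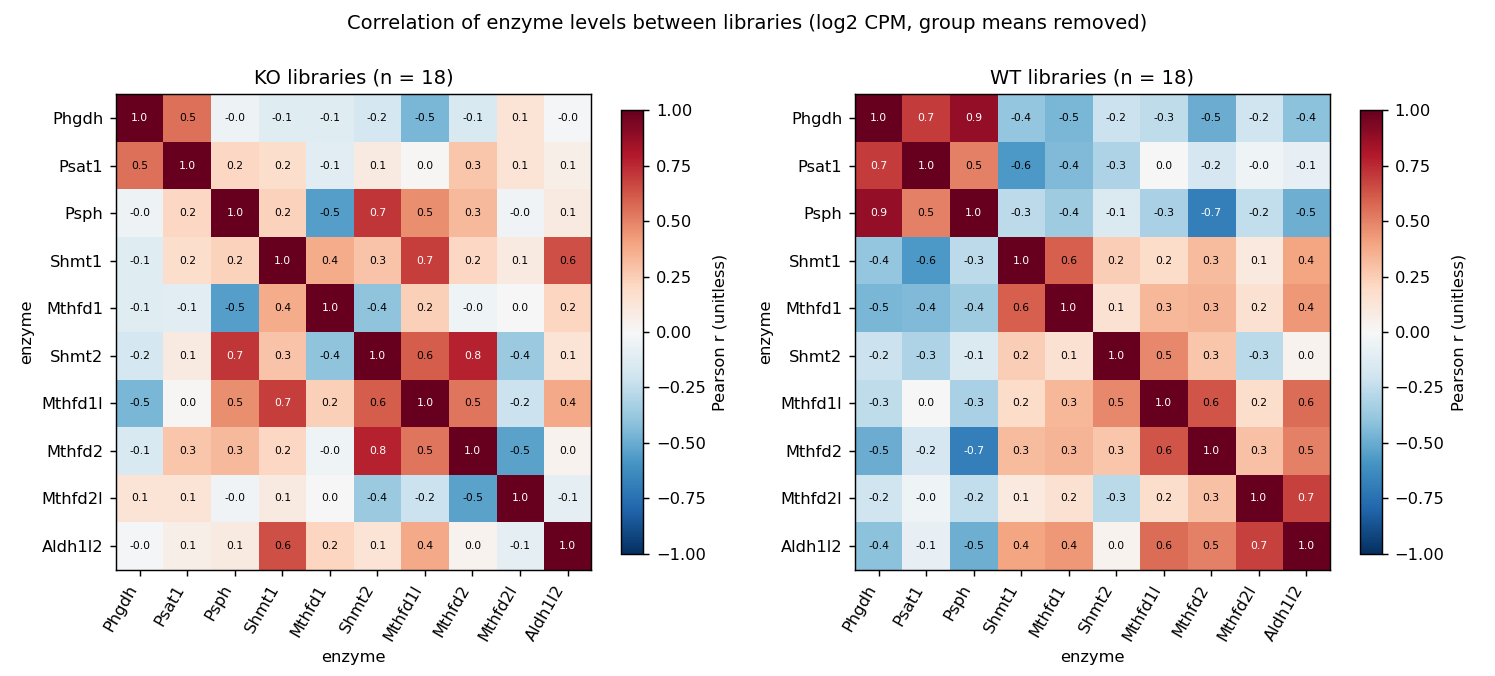
Pearson r (colour and printed value) between the log2 CPM of each pair of enzymes (both axes), group means removed, over 18 KO libraries (left) and 18 WT libraries (right). The Shmt2 and Mthfd2 cell stands out in knockouts (0.77) and the Phgdh and Psph cell in wild types (0.88).

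Genes with the most similar variation to an enzyme were sought over the 36 libraries, with group means removed and as a description only. The search took genes of at least 5 CPM on average and left out predicted genes (symbols of the Gm and Rik kinds). For Mthfd2 they were Vars1, the valyl-tRNA synthetase (r = 0.73), Plekhg1 (0.72), Arhgef11 (0.71), Lgi3 (0.70) and Acsl3 (0.69). For Shmt2 they were Cyb5r1 (0.69), Atg13 (0.69), Vars1 (0.66), Ciart (0.66) and Creb3l1 (0.66). Psph was nearest to Ubxn6 (0.88), Eif4ebp1, a repressor of translation initiation (0.83), Bap1 (0.79), Ddx41 (0.79) and Josd1 (0.78). Among the genes nearest to Phgdh were S100a1 (0.80), Snf8 (0.78), Hdac5 (0.77) and Lap3 (0.77). Psat1 was nearest to Guk1 (0.76), Timm8a1 (0.76), Epb41l2 (0.76), Cth, which makes cysteine from cystathionine (0.72), and Rnf180 (0.72). These libraries share region differences, which bear on all such values.

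The other genes of serine, folate and one-carbon metabolism formed a list of 67, of which 61 were tested. With vehicle 2 were higher and 1 lower in knockouts, and with dm-αKG 1 was higher and 0 lower. Of all genes tested 4.31% were called with vehicle and 1.87% with dm-αKG, so the list lay near the share of all genes. Its medians were −0.05 and −0.06 on the log2 scale. The gene higher in both was Slc1a4, a transporter of serine, alanine and other neutral amino acids. It stood at 51.3 CPM in KO-Veh against 29.6 CPM in WT-Veh (edgeR adjusted p = 0.00284, log2 fold change 0.79, SE 0.16), and 50.7 CPM in KO-aKG against 26.4 CPM in WT-aKG (0.94, SE 0.18, adjusted p = 0.00275). Slc7a10, a serine and alanine exchanger of astrocytes, was lower with vehicle, at 20.9 CPM in KO-Veh against 36.9 CPM in WT-Veh (−0.82, SE 0.19, adjusted p = 0.00769). With dm-αKG Slc7a10 stood at 36.7 CPM in KO-aKG against 39.9 CPM in WT-aKG (−0.13, SE 0.21, adjusted p = 0.821), and the difference between these effects did not pass (0.69, SE 0.28, adjusted p = 0.961). None of the 4 tested glycine cleavage genes, 11 of methionine cycle and transsulfuration or 13 of purine and thymidylate synthesis passed the test in either comparison. At the shares of all genes, few calls would be expected in lists of these sizes.

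Some members share exon bases with a gene on the opposite strand, and the sources used here do not say whether counting used strand. Psph shares 452 exon bases with Cct6a, whose log2 fold changes were −0.15 with vehicle and −0.01 with dm-αKG (edgeR adjusted p = 0.4 and 0.976). Shmt2 shares 32 with Ndufa4l2, which had 0.02 and −0.10 (adjusted p = 0.967 and 0.875). Shmt1 shares 184 with Smcr8, which had 0.10 and 0.29 (adjusted p = 0.682 and 0.299), Mthfd1 shares 37 with Gm47525, and Aldh1l2 shares 1056 with D10Wsu102e, which was not analysed here. Mthfd2 shares none.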

How the data were processed

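Levels of 10 enzymes were measured in 36 mouse brain libraries made with oligo-dT primers and tagmentation, per the labels' protocols. Estimated counts per gene, as whole numbers without normalisation, and CPM of 21637 genes were deposited by the authors. Per the submitters' processing notes, the tools were deepTools, featureCounts 2.0.6, SAMtools 1.6, HISAT2 2.2.1, FastQC 0.12.1 and Trim Galore 0.6.10, with builds mm10 and mm39. The sources used here do not say which build gave the counts or whether molecular identifiers were collapsed. When converted back from CPM, between 85.6% and 88.7% of values per library were within 0.02 of a whole number, so the deposited counts are rounded.

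The test was that of edgeR 4.0.16 under R 4.3.3 (filterByExpr, TMM, robust quasi-likelihood, 1 fit to all 36 libraries in 4 groups), with Benjamini-Hochberg adjustment over 16255 genes and calls at an adjusted p under 0.05. Alternatives used limma 3.58.1 on log2(CPM + 1) and log2(CPM + 0.5) and DESeq2 1.42.0. Ratios used counts + 0.5 and permutation tests in SciPy 1.17.1. Correlations used log2 CPM with a prior count of 2. Groups came from the labels and columns were matched to libraries by name. Of 146 pairs of libraries within groups 0 were identical. All 10 enzymes are named whatever their values, as are called members of the other pathway lists, except that some items are not reported here. The enzymes, lists and promoter motifs were chosen with earlier results of these data known. The NRF1 motif was first searched as a core without variable letters, which also matched Shmt2, and then replaced by the consensus. On simulated counts for the vehicle comparison 54% of changes of 0.6 and 74.7% of changes of 1 on the log2 scale were recovered over 16255 genes. For the dm-αKG comparison 32% and 66.7% were recovered. Promoter windows came from RefSeq tables for GRCm38.p6. Gene overlaps and the GENCODE gene starts came from the GENCODE annotation of GRCm38.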

Additional observations from a re-analysis of the deposited data

Results flagged for a closer look

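In 5 of 40 sets of values (10 enzymes in 4 groups) the highest library stood far from the rest by Dixon's criterion, which chance meets in about 1 of 20. KO-aKG-8 was highest for Psat1 (119 CPM, next 77.5) and for Mthfd2 (33.3 CPM, next 20.1). WT-Veh-1, a cerebellum-high library, was highest for Mthfd1 (25.8 CPM, next 16.6). WT-Veh-9, also cerebellum-high, was highest for Shmt2 (17.3 CPM, next 13.9). WT-Veh-2, which was not cerebellum-high, was highest for Mthfd2 (12.4 CPM, next 7.19). WT-Veh-2 and KO-aKG-8 also had the highest mean log2 CPM of the oligodendrocyte markers in their groups (10.2 and 9.96). Whether this bears on their Mthfd2 levels was not tested.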

How the results depend on the processing

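Under 46 alternatives, 36 of which leave out 1 library each, 2278 of 2290 enzyme values kept their side of the threshold and their direction where called. These values include the treatment comparisons and the difference between them, where 0 enzymes were called under any alternative. They also include fits that left out a library of a group not compared, so the share says little about the genotype comparisons. The 12 values that changed newly passed the threshold, for Aldh1l2, Mthfd1l or Phgdh (Phgdh with dm-αKG by limma on CPM, 0.49 and 0.51). Psph, Shmt2 and Mthfd2 passed in both genotype comparisons under each alternative. With vehicle 5 enzymes were called with region scores as covariates. Leaving out 1 library gave 3 to 4 in both comparisons. The Shmt2 to Shmt1 ratio with dm-αKG was 0.44 and passed when paired by replicate number (exact sign-flip adjusted p = 0.0112), a pairing not adopted here. Without the cerebellum-high libraries that difference was 0.18 and did not pass (exact permutation adjusted p = 0.564). Leaving out 1 library moved Mthfd1l to Mthfd1 with dm-αKG from 0.33 to 0.57, past the threshold without KO-aKG-5. It moved Aldh1l2 to Aldh1l1 with vehicle from 0.48 to 0.69, past it without KO-Veh-3, KO-Veh-4 or WT-Veh-9. Without cerebellum-high libraries 0 pairs in knockouts and 0 in wild types were correlated past the threshold, with fewer libraries. Replicate numbers were not taken to pair the samples, since a correlation above 0.1 in every pair was required: same-numbered libraries correlated above 0.1 in 7 of 8 pairs for KO-aKG and WT-aKG, 4 of 8 for KO-aKG and KO-Veh, 3 of 8 for WT-aKG and WT-Veh and 3 of 10 for KO-Veh and WT-Veh, and with the replicate block 3 enzymes were called in each genotype comparison. Calls over all genes, 701 with vehicle, were 324 in the 2 groups alone, 348 without filter, 174 and 169 with limma and 1338 with region scores. Those with dm-αKG, 304, were 145 without filter, 510 with DESeq2, 599 without cerebellum-high libraries and 216 with limma (211 higher and 5 lower, with the median of all genes at 0.14). Leaving out 1 library moved these counts by over 1.5 times for KO-Veh-4 (467 calls), KO-Veh-7 (1662) and KO-Veh-10 (440) with vehicle, and for KO-aKG-2 (163), KO-aKG-8 (133), WT-aKG-1 (188) and WT-aKG-6 (145) with dm-αKG. Shmt1 and Aldh1l2 are limited by their low counts.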
